A study of Marchantia polymorpha subsp. ruderalis with 24 samples.

Results

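MpDET1 (Mp8g00970) and MpCOP1 (Mp5g12010) are the liverwort homologues of DE-ETIOLATED1 (DET1) and CONSTITUTIVE PHOTOMORPHOGENIC 1 (COP1), repressors of light responses in plants. These 2 genes were picked by identifier out of the 20574 genes in the count table of Marchantia polymorpha subsp. ruderalis. Plants of the accession Takaragaike-1 (Tak-1), a male laboratory strain, started as gemmae, the clonal propagules of the liverwort, and grew on agar at 20 °C with 12 h light and 12 h dark. They then went into constant light, and messenger RNA of young thallus, the flat plant body, was sequenced every 6 h from 24 h to 66 h after that move. There were 3 libraries at each of the 8 times, 24 in all, and every group was the same genotype, with no mutant and no library under the light-dark cycle. The series title names DET1 and the circadian clock, so the question put to these genes is whether and how their transcripts cycle without a light-dark signal.

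In Arabidopsis, where these proteins are best known, DET1 forms a nuclear complex with DDB1 and COP10 that works together with CUL4-type ubiquitin ligases. COP1 is itself a ubiquitin ligase; with SPA proteins it marks light-promoting transcription factors such as HY5 for destruction, mainly in the dark. Photoreceptors that have absorbed light inhibit COP1. Arabidopsis det1 mutants look light-grown in the dark and have an altered clock, which places the protein between light signalling and timekeeping. Most of this work concerns protein activity and stability, whereas the values below are transcript levels.

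MpDET1 was well expressed and swung widely. Its counts ranged from 776 to 7163 per library, in libraries that totalled 14929708 to 59194999 counts. Levels are given as CPM, the counts scaled to a common library total, computed from library totals scaled by TMM, a factor that corrects for differences in RNA composition. At 24 h the 3 libraries had 133, 136 and 143 CPM of MpDET1. At 30 h they had 94.6, 89.3 and 89.4 CPM, and at 36 h 44.7, 47.1 and 48.6 CPM. At 42 h the values were 69.5, 64.2 and 74.8 CPM. The level thus fell over the first 12 h sampled, without overlap between one time and the next, and had begun to recover by 42 h. The share of all genes without overlap over these times was not computed.

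On the second day MpDET1 again started high. The 48 h libraries held 117, 125 and 145 CPM, and the 54 h libraries 109.7, 108 and 115 CPM. At 60 h the level was 71.5, 74.8 and 58.6 CPM, and at 66 h 55.5, 55.6 and 71.5 CPM. The low point now came at 66 h, and the ranges of 60 and 66 h overlapped. Ordered by mean level, MpDET1 was lowest at 36 h with 46.8 ± 1.9 CPM (SD, n = 3), and next came 66 h with 60.9 ± 9.2, 60 h with 68.3 ± 8.6 and 42 h with 69.5 ± 5.3 CPM. Above these lay 30 h with 91.1 ± 3.0 CPM, 54 h with 111 ± 3.6, 48 h with 129 ± 15 and finally 24 h with 137 ± 5.5 CPM. Neighbours in this order whose replicates overlapped were 66 and 60 h, 60 and 42 h, and 48 and 24 h; the other neighbours were apart.

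MpCOP1 was detected as firmly but moved much less. Its counts lay between 847 and 3834 per library. MpCOP1 had 71.7, 70.4 and 76.8 CPM at 24 h and 68.8, 71.2 and 71.7 CPM at 30 h. It had 63.2, 56.3 and 55.2 CPM at 36 h and 50.7, 59.7 and 57 CPM at 42 h. All 6 libraries of 36 and 42 h were below all 6 of 24 and 30 h. The share of all genes separated in this way was not computed. On the second day MpCOP1 had 70.7, 76.5 and 82.6 CPM at 48 h and 77.3, 77.2 and 74.2 CPM at 54 h. It had 81.4, 73.4 and 64.8 CPM at 60 h and 57.9, 58.4 and 63.7 CPM at 66 h. Here the level stayed up through 60 h in 2 of 3 libraries and was low at 66 h in all 3.

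**Figure D1:**
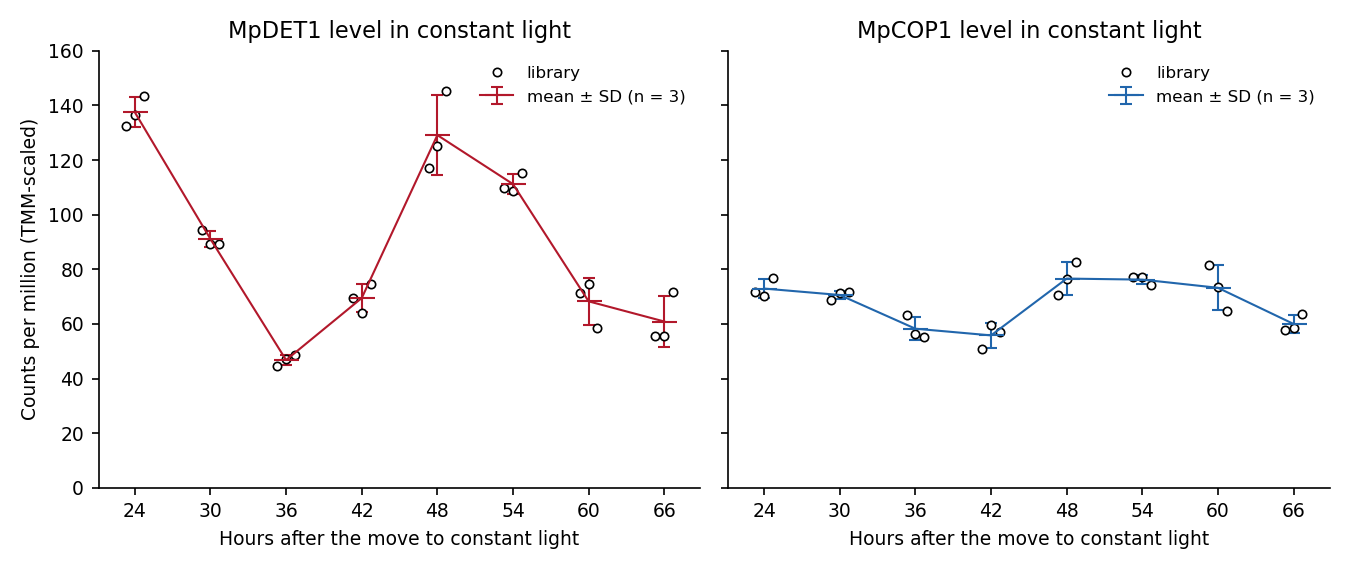
Level of MpDET1 (left) and MpCOP1 (right) in CPM, scaled by TMM, against hours after the move to constant light; circles are single libraries, and lines join the means with SD over 3 libraries. MpDET1 lies between 44.7 and 145 CPM and is highest at 24 and 48 h, while MpCOP1 stays between 50.7 and 82.6 CPM.

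By mean level MpCOP1 was lowest at 42 h (55.8 ± 4.6 CPM), 36 h (58.2 ± 4.3) and 66 h (60.0 ± 3.2), and the replicates of these times overlapped as neighbours. At the other 5 times the mean lay between 70.6 CPM (30 h) and 76.6 CPM (48 h), and each overlapped its neighbour in the order. The only gap between neighbours was that between 66 and 30 h, and replicate 3 of 60 h, with 64.8 CPM, lay within it. For MpDET1 there were 4 such gaps. Gaps of this kind were not counted for other genes. Levels of the genes are not set against each other here, because no transcript lengths were used.

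Replicates of both genes agreed closely. The coefficient of variation over the 3 libraries of a time was at most 15.1% for MpDET1, with a median of 5.89%, and at most 11.3% for MpCOP1, with a median of 6.36%. For both genes the spread exceeded 10% at 60 h, and for MpDET1 also at 48 and 66 h. Genes with neighbouring identifiers were also counted. On either side of MpDET1, Mp8g00960 had 3 to 59 counts and Mp8g00980 had 0 to 3. Beside MpCOP1, Mp5g12020 had 0 to 3 counts. Mp5g12000 had 298 to 1282 counts and no called rhythm (0.09 on the log2 scale, edgeR adjusted p = 0.786).

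A 24 h rhythm was called for both transcripts. It was tested for all 14414 genes that passed a filter on low counts, with cosine and sine terms beside a linear trend in hours, in edgeR's quasi-likelihood test with Benjamini-Hochberg adjustment; a call is an adjusted p under 0.05. Of all tested genes 18.7% were called, and both MpDET1 and MpCOP1 were among them. The fitted difference between peak and trough of MpDET1 was 1.45 ± 0.13 on the log2 scale (SE), or 2.73 fold, with an adjusted p of 5.69e-08. Its peak lay at 1.86 ± 0.30 h, counted in hours after the move modulo 24 h. MpCOP1 changed by 0.48 ± 0.08 on the log2 scale, or 1.39 fold, and its fitted maximum came at 3.85 ± 0.60 h (edgeR adjusted p = 5.52e-04). The peak of MpCOP1 was thus fitted 1.99 h after that of MpDET1; this difference in time was not tested.

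The rhythms of MpDET1 and MpCOP1 differed in size. Among the 2700 genes called rhythmic the median change was 1.47 fold, so MpCOP1 was below the middle and exceeded 38.7% of them. MpDET1 exceeded 92.6% of them. Restricted to the 2248 rhythmic genes with a mean of 10 CPM or more, only 84 swung more widely than MpDET1. In peak time neither gene stood alone: 472 rhythmic genes had a fitted peak within 1 h of that of MpDET1, and 281 within 1 h of that of MpCOP1.

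The call of MpCOP1 depended on how slow change was modelled. With a step between the days added to the linear trend, its rhythm was 0.14 ± 0.11 on the log2 scale (edgeR adjusted p = 0.603), and with a 22 h period it was 0.37 ± 0.10 (adjusted p = 0.0522). MpDET1 kept its call in both cases, at 1.1 ± 0.23 (adjusted p = 0.00278) and 1.2 ± 0.21 (adjusted p = 0.00193). A 26 h period gave MpDET1 1.45 ± 0.09 (adjusted p = 3.80e-11) with a fitted peak at 24.3 h in the 26 h cycle, and MpCOP1 0.49 ± 0.07 (adjusted p = 3.18e-05). The errors at 26 h were smaller than at 24 h for both genes. With 8 times over 42 h the period itself was not estimated.

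Without any assumed shape, both genes differed between the times. A difference among the 8 times was found for 36.8% of tested genes, and for MpDET1 (adjusted p = 9.44e-10) and MpCOP1 (adjusted p = 3.14e-04) in edgeR. A curve of cosine, sine and linear trend was also fitted to the 8 time means of log2 CPM. It took up 90.4% of the variance between the time means of MpDET1 and 77.1% of that of MpCOP1. These shares were not adjusted for the number of terms, which is large for 8 points. The largest departure was at 60 h for each gene, where the mean lay above the curve by 0.28 on the log2 scale for MpDET1 and by 0.17 for MpCOP1.

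Step by step, the changes of MpDET1 were concentrated in certain windows. Between 30 and 24 h, where 4.43% of genes were called, MpDET1 fell by 0.59 ± 0.10 on the log2 scale (edgeR adjusted p = 9.40e-04). Between 36 and 30 h (5.35% called) it fell by 0.96 ± 0.11 (adjusted p = 2.79e-06), the steepest fall of any step. It then rose by 0.57 ± 0.10 at 42 h against 36 h (1.73% called, adjusted p = 0.00386) and by 0.89 ± 0.10 at 48 h against 42 h (3.46% called, adjusted p = 1.25e-05). The value at 54 h against 48 h was −0.22 ± 0.10 and was not called (0.208% called, adjusted p = 0.753). From there MpDET1 fell by 0.70 ± 0.10 at 60 h against 54 h (1.63% called, adjusted p = 6.72e-04). The last step, 66 h against 60 h, gave −0.16 ± 0.10 (1.33% called, adjusted p = 0.562). MpDET1 was therefore called in 5 of 7 steps, at times when few genes were.

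MpCOP1 was called in 1 of the same 7 steps. It rose by 0.46 ± 0.09 at 48 h against 42 h (edgeR adjusted p = 0.003), which is 1.37 fold. Its 36 h against 30 h step was −0.28 ± 0.09 (adjusted p = 0.0704) and its 66 h against 60 h step −0.29 ± 0.09 (adjusted p = 0.122). The other 4 steps lay between −0.06 and −0.01, none of them called. The rise into 48 h was shared by both genes, and fitting 42 and 48 h alone left that of MpCOP1 uncalled (0.46 ± 0.11, adjusted p = 0.105).

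**Figure D2:**
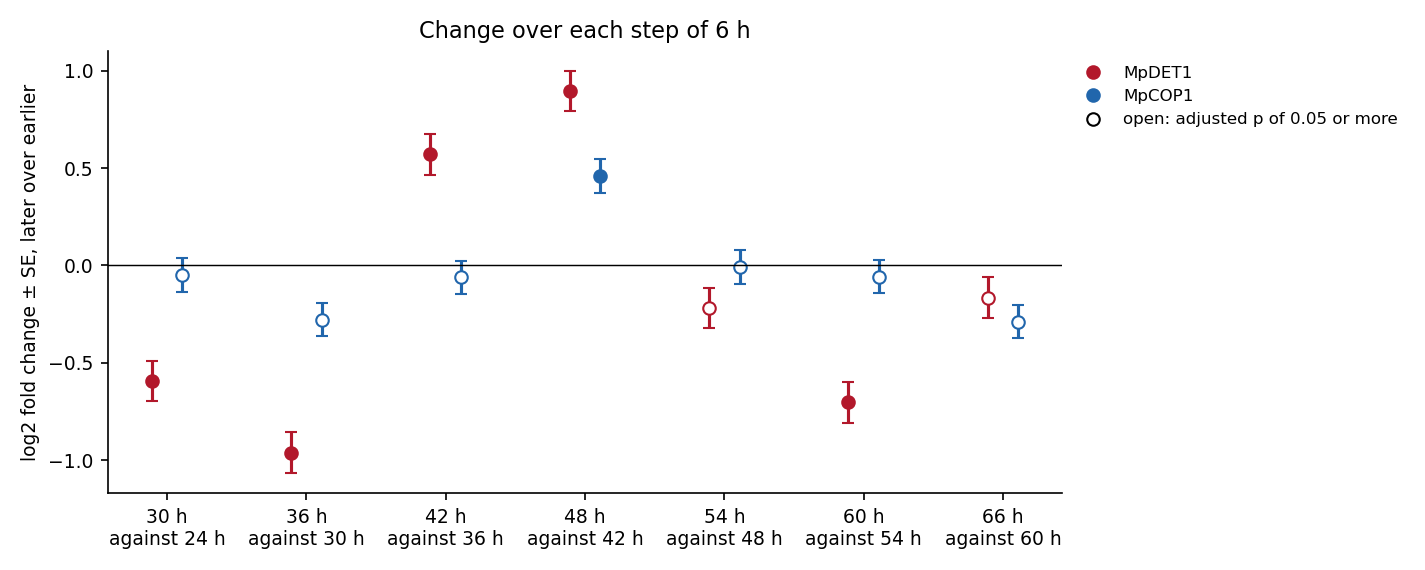
Change of MpDET1 (red) and MpCOP1 (blue) over each step of 6 h, as log2 fold change of the later over the earlier time with SE; filled circles passed an edgeR adjusted p of 0.05 and open circles did not. MpDET1 moves down, up and down again, and the step of 48 h against 42 h is the only filled one of MpCOP1.

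Times 12 h apart are opposite phases of a 24 h cycle, and 4 such pairs lie within 1 day. In these 4 pairs MpDET1 was lower at the later time. At 36 h against 24 h, where 19.6% of genes were called, MpDET1 fell by 1.55 ± 0.11 on the log2 scale, that is 2.94-fold lower at 36 h (edgeR adjusted p = 8.94e-10). At 60 h against 48 h (7.26% called) it fell by 0.92 ± 0.10 (adjusted p = 7.14e-06), and at 66 h against 54 h (6.77% called) by 0.87 ± 0.10 (adjusted p = 1.15e-05). The difference was smallest at 42 h against 30 h (11.8% called), where MpDET1 fell by 0.39 ± 0.10 (adjusted p = 0.0158); this call was lost without replicate 1 of 30 h (adjusted p = 0.0582) or replicate 2 of 42 h (adjusted p = 0.0861).

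MpCOP1 was lower at the later time in 3 of these pairs. It fell by 0.33 ± 0.09 at 36 h against 24 h (adjusted p = 0.00934), by 0.34 ± 0.09 at 42 h against 30 h (adjusted p = 0.0126) and by 0.35 ± 0.09 at 66 h against 54 h (adjusted p = 0.0164), all by edgeR. At 60 h against 48 h the value was −0.07 ± 0.09 (adjusted p = 0.749). Each of the 3 calls was lost on scaling by total counts alone (adjusted p from 0.0941 to 0.102) and on leaving out certain libraries. For 36 h against 24 h these were replicate 3 of 24 h (adjusted p = 0.0521) and replicate 3 of 36 h (0.0556). For 42 h against 30 h they were replicate 3 of 30 h (0.0517) and replicate 1 of 42 h (0.0560), and for 66 h against 54 h replicate 1 of 54 h (0.0576) and replicate 1 of 66 h (0.0789).

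Pooling both days by phase gives the same picture in single libraries. The 6 libraries of 36 and 60 h had 44.7 to 74.8 CPM of MpDET1 (median 53.6), against 117 to 145 CPM (median 135) in the 6 of 24 and 48 h. The 6 libraries of 42 and 66 h had 55.5 to 74.8 CPM of MpDET1, against 89.3 to 115 CPM in the 6 of 30 and 54 h. The groups did not overlap in either case; the first 6 all lay below the other 6 for 3.53% of tested genes in the first comparison and for 2.89% in the second. MpCOP1 also separated 42 and 66 h (50.7 to 63.7 CPM) from 30 and 54 h (68.8 to 77.3 CPM). Its values at 36 and 60 h (55.2 to 81.4 CPM) overlapped those at 24 and 48 h (70.4 to 82.6 CPM).

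Since both transcripts were counted in the same libraries, the ratio of their counts shows without any library scaling whether they swing by the same factor. They did not. On the first day the ratio of MpDET1 to MpCOP1 counts was 1.89 ± 0.05 at 24 h (mean and SD, n = 3) and 1.29 ± 0.07 at 30 h, then 0.808 ± 0.089 at 36 h and 1.25 ± 0.16 at 42 h. On the second day 48 h had 1.68 ± 0.07 and 54 h 1.46 ± 0.08, while 60 h had 0.933 ± 0.075 and 66 h 1.01 ± 0.10. Ratios across the 6 libraries of 36 and 60 h were 0.708 to 1.02, and those of 24 and 48 h were 1.63 to 1.94.

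The geometric mean ratio was 0.865 at 36 and 60 h against 1.78 at 24 and 48 h, a difference of −1.04 on the log2 scale (exact permutation test, two-sided, 6 against 6 libraries, p = 0.00216, adjusted over 2 comparisons 0.00433; the smallest p this test can give is 0.00216). At 42 and 66 h it was 1.12, against 1.37 at 30 and 54 h, a difference of −0.29 (exact permutation test, p = 0.0260, adjusted 0.0260). In the second comparison the difference was carried by the second day: it was −0.05 on day 1 and −0.53 on day 2. Within a day the exact permutation test sets 3 against 3 libraries, and its smallest possible p is 0.1. In the same libraries MpDET1 thus changed by 2.06-fold more than MpCOP1 between the first pair of phases.

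**Figure D3:**
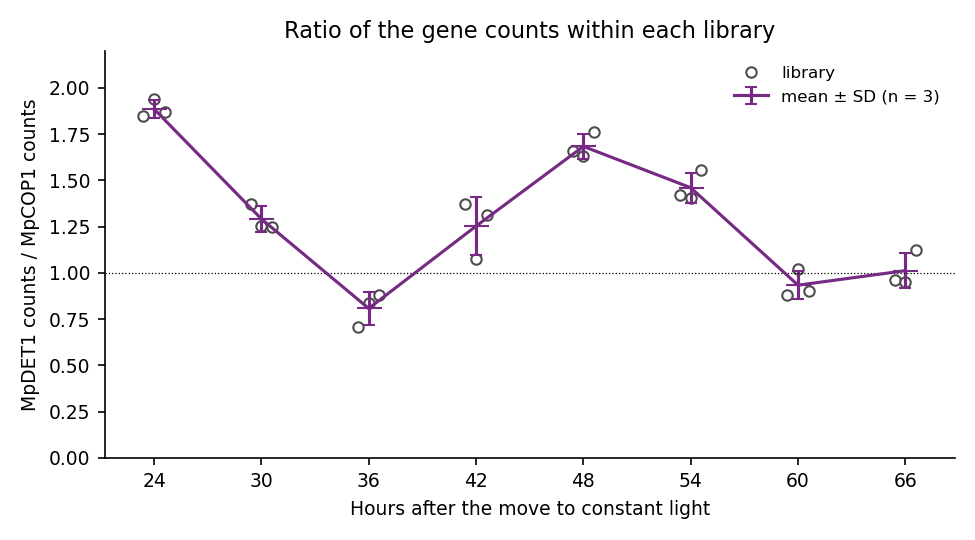
MpDET1 counts divided by MpCOP1 counts in each library (circles) with mean and SD over 3 libraries, against hours after the move to constant light. The ratio is highest at 24 h (1.89) and 48 h (1.68) and lowest at 36 h (0.808); the dotted line marks equal counts, which has no meaning of its own, since transcript lengths were not used.

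Times 24 h apart are the same phase on successive days. Of these pairs only 60 h against 36 h was called for either gene, and a missing call does not show equal levels. At 48 h against 24 h (15.5% of genes called) the values were −0.09 ± 0.10 on the log2 scale for MpDET1 and 0.07 ± 0.09 for MpCOP1, neither called by edgeR (adjusted p = 0.613 and 0.643). At 60 h against 36 h (8.49% called) both genes were higher on the second day. MpDET1 rose by 0.55 ± 0.11 (adjusted p = 0.00356), with 68.3 CPM at 60 h against 46.8 CPM at 36 h. MpCOP1 rose by 0.33 ± 0.09 (adjusted p = 0.0224), with 73.2 CPM at 60 h against 58.2 CPM at 36 h. The call of MpCOP1 was lost without replicate 2 or 3 of 36 h (adjusted p = 0.101 and 0.0961) or replicate 1 or 2 of 60 h (0.140 and 0.0757). At 54 h against 30 h (8.55% called) MpDET1 had 0.29 ± 0.10 (edgeR adjusted p = 0.0886). For MpDET1 this pair was called when fitted alone. At 66 h against 42 h (2.78% called) MpDET1 had −0.19 ± 0.10 (adjusted p = 0.395). MpCOP1 had 0.11 ± 0.09 at 54 h against 30 h and 0.10 ± 0.09 at 66 h against 42 h, neither called (adjusted p = 0.471 and 0.615).

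On the mean of the 4 phases, MpDET1 was higher on day 2 (48 to 66 h) than on day 1 (24 to 42 h). The difference was 0.14 ± 0.05 on the log2 scale, with an edgeR adjusted p of 0.0422. For MpDET1 the single pairs were positive at 60 h against 36 h and 54 h against 30 h. They were negative at 48 h against 24 h and 66 h against 42 h. On the same mean MpCOP1 rose by 0.15 ± 0.04 (adjusted p = 0.00873). In this comparison 34.6% of tested genes were called in one direction or the other. The call of MpDET1 was not firm. It was lost in 15 of the 24 fits that left out a single library (adjusted p up to 0.0866), and that of MpCOP1 in none of them.

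The 24 h rhythm fitted to MpDET1 also differed between the days. The period was held at 24 h in this comparison, and other periods were not tested in it. Terms that let the rhythm change from day 1 to day 2 were called for MpDET1, with a difference curve of 0.79 from peak to trough on the log2 scale (edgeR adjusted p = 0.0271), while 2.25% of genes were called. Fitted by day, the peak-to-trough change of MpDET1 was 1.26 ± 0.11 on day 2 and 1.60 ± 0.11 on day 1. The peak lay at 2.88 ± 0.34 h on day 2 and at 0.94 ± 0.27 h on day 1. The lowest time mean was at 66 h on day 2 and at 36 h on day 1, although the change at 66 h against 60 h was not called. For MpCOP1 the same terms gave 0.26 and were not called (adjusted p = 0.526). Its fitted rhythm was 0.35 ± 0.09 on day 2, peaking at 5.28 ± 1.04 h, and 0.47 ± 0.09 on day 1, peaking at 3.07 ± 0.77 h. A smaller range on day 2 was common: the range of the time means was smaller on day 2 for 75.2% of the rhythmic genes.

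**Figure D4:**
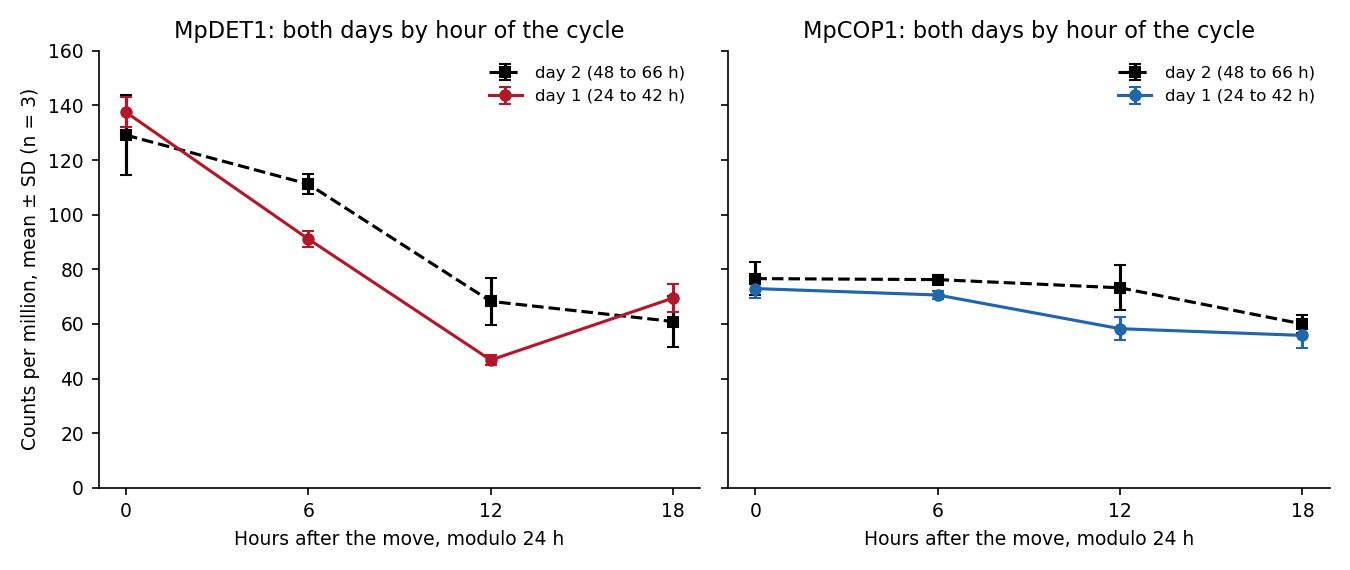
Mean level with SD (n = 3) of MpDET1 (left) and MpCOP1 (right) in CPM on day 2 (black squares, dashed) and day 1 (coloured circles), against hours after the move modulo 24 h. MpDET1 is lowest at 12 h of the cycle on day 1 (46.8 CPM) and at 18 h on day 2 (60.9 CPM); MpCOP1 is higher at 12 h on day 2 (73.2 CPM) than on day 1 (58.2 CPM).

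Some libraries stood apart in the RNA of 1 gene. The share of all counts that fell on MpVg01240, a gene of the V chromosome, was 7.22% in the third library of 24 h, 4.44% in that of 30 h and 4.27% in that of 66 h. In the other 21 libraries it was 0.301% to 2.39%. Its part in the results was not tested beyond leaving out these libraries, which also leaves fewer libraries to test. Without these 3 libraries the difference curve of MpDET1 was as large, 0.80, and was not called (adjusted p = 0.0857), and 95 genes were called in all, against 325. It was also uncalled without replicate 3 of 24 h alone (adjusted p = 0.0532) or replicate 1 of 60 h (adjusted p = 0.0559). The 24 h rhythm of both genes was called without the 3 libraries, at 1.43 ± 0.13 for MpDET1 (adjusted p = 3.25e-07) and 0.48 ± 0.09 for MpCOP1 (adjusted p = 0.00124).

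None of the partners of these proteins that could be matched had a called rhythm. Of 26 further light signalling genes looked up by symbol, 15 were matched and all 15 were tested; CUL4, HY5 and the COP9 signalosome subunits had no matching symbol and are not analysed here. Of the 15, 4 were called rhythmic, or 26.7% against 18.7% of all tested genes, with a median change of 1.18 fold against 1.19 fold over all tested genes. MpDDB1, which holds the DET1 complex to its ligase, changed by 0.12 ± 0.07 on the log2 scale (adjusted p = 0.495). MpCOP10, the third member of that complex, changed by 0.08 ± 0.11 (adjusted p = 0.862). MpSPA1, the partner of COP1, changed by 0.24 ± 0.08 with a fitted peak at 4.33 h (adjusted p = 0.0895). Before adjustment 1 of the 3, MpSPA1, had a p under 0.05 in edgeR. MpSPA1 was called by DESeq2 (adjusted p = 0.0457) and without replicate 2 of 42 h (0.0399) or replicate 3 of 66 h (0.0411).

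MpDDB1 had its lowest time mean at 54 h (97.9 CPM) and its highest at 30 h (115 CPM). MpCOP10 was lowest at 36 h (68.9 CPM) and highest at 60 h (87.4 CPM), and MpSPA1 lowest at 36 h (94.9 CPM) and highest at 54 h (116 CPM). Between the days MpCOP10 rose by 0.20 ± 0.08 (edgeR adjusted p = 0.0421) and MpDDB1 fell by 0.10 ± 0.04 (adjusted p = 0.0399). In that comparison 34.6% of all tested genes were called, and these partner calls were not tried under other settings. MpDET1 had the only called rhythm among the 3 genes of its complex in this fit, where 18.7% of all tested genes were called. A difference in rhythm between MpDET1 and its partners was not tested.

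Listed as acting downstream of COP1 or beside it were 8 genes for transcription factors and regulators. Of these, 3 were called rhythmic, or 37.5% against 18.7% of all tested genes. Whether the 8 act so in the liverwort was not tested. The B-box gene MpBBX1 had the widest swing of the list, 6.40 fold, and peaked at 6.25 ± 0.35 h (edgeR adjusted p = 2.04e-07). MpBBX6, another B-box gene, swung 2.46 fold and peaked at 14.8 ± 0.4 h (adjusted p = 5.23e-06), and MpBHLH6, the gene of the phytochrome-interacting factor, swung 1.48 fold and peaked at 9.85 ± 0.86 h (adjusted p = 0.00253). Set by fitted peak, MpDET1 came first, MpBBX1 4.39 h later MpBHLH6 7.99 h later and MpBBX6 13.0 h later. The other 5 factor genes were not called: MpBBX2, MpBBX3, MpBBX4 and MpBBX5, and MpRUP, whose homologues in Arabidopsis restrain the UV-B receptor. Of these, MpBBX3 came nearest (0.27 ± 0.09, adjusted p = 0.0826), and MpBBX2, with a mean of 1.48 CPM, had the least precise value (0.87 ± 0.29, adjusted p = 0.105).

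Among the 4 photoreceptor genes MpPHOT, for the blue-light receptor phototropin, was called, with 1.42 fold and its peak at 3.97 ± 0.58 h (edgeR adjusted p = 2.83e-04). In size and peak it was close to MpCOP1. It was also like MpCOP1 in losing its call when linear and day terms were fitted together (adjusted p = 0.199). MpPHY, for the red-light receptor phytochrome, had 0.32 ± 0.10 with a fitted peak at 1.39 h (adjusted p = 0.0579), the cryptochrome gene MpCRY 0.14 ± 0.08 and the UV-B receptor gene MpUVR8 0.17 ± 0.06 (adjusted p = 0.484 and 0.157). Between the days 5 of the 15 listed genes were called, 4 upward and 1 downward, where 34.6% of all tested genes were called, and 4 were called for differing among the 8 times, which are 26.7% of the list against 36.8% of all tested genes.

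**Figure D5:**
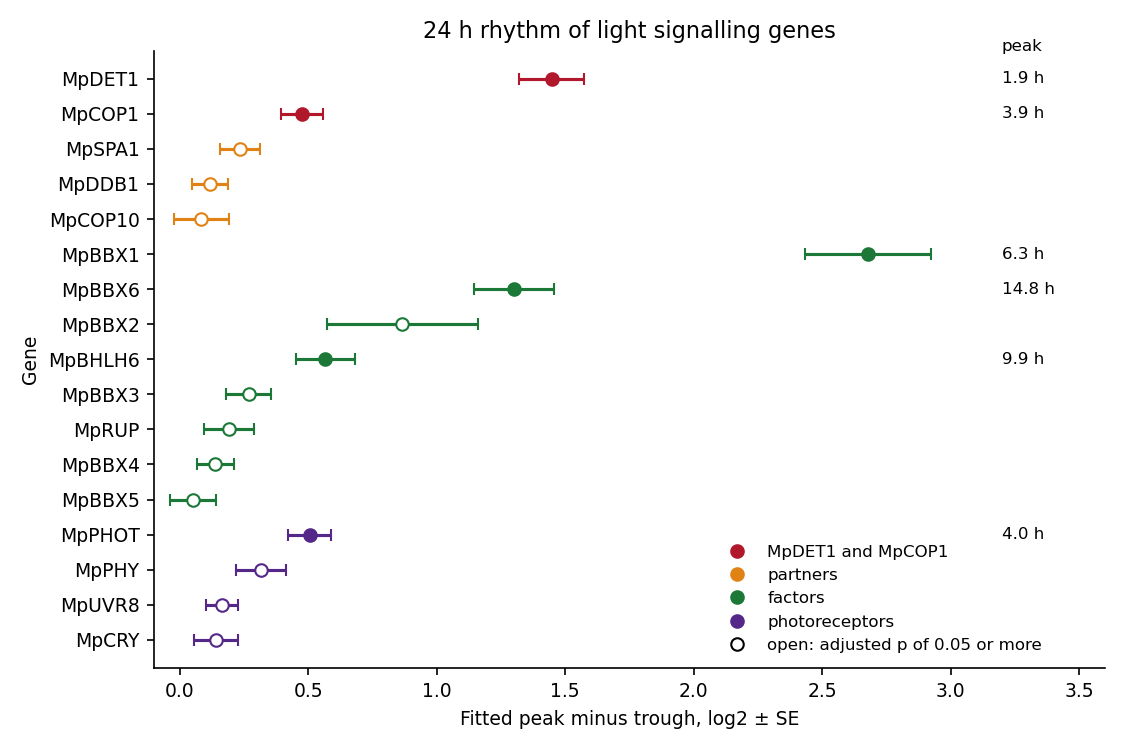
Fitted difference between peak and trough of the 24 h rhythm on the log2 scale with SE, for MpDET1 and MpCOP1 (red), their partners (orange), factors (green) and photoreceptors (purple); filled circles passed an edgeR adjusted p of 0.05, with the fitted peak in hours after the move modulo 24 h at the right. MpBBX1 (2.68) and MpDET1 (1.45) have the widest called rhythms, and the 3 partners are open circles between 0.08 and 0.24.

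Set beside clock genes, MpDET1 peaked 7.21 h before MpPRR, the gene of a pseudo-response regulator (peak at 9.07 ± 0.28 h, 5.25 fold), and 7.78 h before the REVEILLE-type MYB gene Mp1R-MYB11 (9.64 ± 1.08 h, 1.31 fold). MpTOC1, another pseudo-response regulator gene, and MpGI, the homologue of GIGANTEA, had fitted peaks 11.4 h and 11.2 h after that of MpDET1. The calls of Mp1R-MYB11, MpGI and MpTOC1 were lost with a 22 h period (adjusted p = 0.0681, 0.119 and 0.0568). Those of MpGI and MpTOC1 were also lost with linear and day terms together (0.192 and 0.243), that of Mp1R-MYB11 without the 3 libraries rich in MpVg01240 (0.0548) and that of MpGI without replicate 1 of 36 h (0.0702). Of the 8 clock genes 4 were called rhythmic by edgeR, or 50% against 18.7% of all tested genes. Among these 4 only MpPRR swung more widely than MpDET1. The others, MpFKF, MpELF3, MpELF4 and MpGARP7, were not called (edgeR adjusted p = 0.101, 0.551, 0.998 and 0.347).

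The genes with profiles most like those of MpDET1 and MpCOP1 were sought among 1803 tested genes with a symbol and a mean of 10 CPM or more, by Pearson correlation over the 8 time means of log2 CPM. The values are a description: the points share libraries and depth, and with 8 points and so many genes high values arise readily. For MpDET1 the 5 closest were MpIDS4 (Mp5g20580, r = 0.991) and MpSMR (Mp1g14080, 0.985), whose product is an inhibitor of cyclin-dependent kinases. The others were the fatty acid desaturase gene MpFAD11 (Mp5g20700, 0.984), MpRR-MYB2 (Mp2g13020, 0.978) and MpGR3 (Mp6g13770, 0.974). Over the 24 single libraries their correlations with MpDET1 were 0.843 to 0.962. MpIDS4 swung by 2.31 fold and MpSMR by 2.60 fold, near the 2.73 fold of MpDET1, and the other 3 by 1.45 to 1.71 fold. All 5 had fitted peaks between 1.60 and 2.42 h.

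For MpCOP1 the closest were MpPKC8 (Mp4g06770, r = 0.979), the desaturase gene MpFAD3 (Mp2g24510, 0.976), the glutathione S-transferase gene MpGST16 (Mp2g02670, 0.976), MpCAT2 (Mp4g06600, 0.976) and MpGH1.3 (Mp2g17840, 0.971). Over the 24 libraries these were 0.840 to 0.928. Each peaked between 3.54 and 4.03 h, and 4 of the 5 swung by 1.62 to 2.67 fold, more than MpCOP1. The profiles of MpDET1 and MpCOP1 correlated at 0.787 with each other, and 294 of all tested genes had a value over 0.9 with MpDET1 and 126 with MpCOP1. Most unlike MpDET1 were MpLIM3 (Mp4g02460, r = −0.979), MpHDAC10 (Mp4g13370, −0.979), for a histone deacetylase, and MpNBS-LRR4 (Mp3g00170, −0.971), which was not called rhythmic (adjusted p = 0.366). Most unlike MpCOP1 were MpC2H2-12 (Mp4g13860, −0.953), MpC3H12 (Mp3g23720, −0.918) and MpGT61.7 (Mp5g21130, −0.914), none of them called rhythmic by edgeR (adjusted p = 0.0635 to 0.210).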

How the data were processed

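The authors deposited raw counts per gene for 24 libraries of young thallus, with no normalization; per the labels' protocols these were stranded TruSeq libraries with poly(A) selection from 100 ng of total RNA. No source used here names the aligner, counting program, strand setting or build, so reads of overlapping or antisense genes could be shared. Columns were matched to samples by title. Symbols came from RefSeq's table of assembly MpTak2_v7.1, joined on locus tag digits (17641 identifiers matched, 3091 with a symbol); the deposited identifiers carry another annotation version, and no coordinates of that assembly were used. In R 4.3.3, edgeR 4.0.16 kept 14414 genes (filterByExpr, minimum count of 10, times as groups), scaled by TMM (0.932 to 1.1) and ran quasi-likelihood tests over all of them. CPM was computed from the deposited counts. limma 3.58.1 (voom) and DESeq2 1.42.0 were alternatives.

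The labels do not say whether replicates were separate cultures, so the p-values reflect only how these samples vary, possibly for technical reasons. No pair of libraries of a time agreed within counting noise (chi-square per degree of freedom at least 11.8), and 61 of 207 V-chromosome genes of the male passed the filter. Genes and lists were chosen with earlier results of these data known. Named genes were both members, every tested gene of the light signalling and clock lists, and for each member the 5 most like and 3 most unlike genes.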

Additional observations from a re-analysis of the deposited data

Results flagged for a closer look

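The fitted 24 h rhythm of MpDET1 differed between day 2 and day 1, by edgeR's test of the day-by-rhythm terms. So did that of 1 of the 15 listed light signalling genes and 1 of the 8 clock genes. Of all tested genes 2.25% were called. MpDET1 had a difference curve of 0.79 from peak to trough on the log2 scale (adjusted p = 0.0271). MpBBX1 had 1.95 (adjusted p = 1.23e-04) and MpPRR 1.26 (adjusted p = 0.00467). Leaving out single libraries kept the calls of MpBBX1 and MpPRR in all 24 fits and that of MpDET1 in 22 of 24. The call of MpDET1 was also lost without the 3 libraries rich in MpVg01240 and on scaling by total counts.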

How the results depend on the processing

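Of the results on MpDET1 and MpCOP1, the 24 h rhythm of MpDET1 was called under every alternative run (1.1 to 1.46 on the log2 scale, and 1.39 to 1.51 without single libraries). That of MpCOP1 was called except with linear and day terms together (0.14) or a 22 h period (0.37), and gave 0.44 to 0.50 without single libraries. Genes called rhythmic numbered 1712 with a 22 h period, 4269 with a day term as drift and 1009 with linear and day terms. On scaling by total counts the following edgeR calls were lost: MpCOP1 at 36 h against 24 h (−0.25), 42 h against 30 h (−0.27), 60 h against 36 h (0.27) and 66 h against 54 h (−0.29), MpDET1 at 42 h against 30 h (−0.32), its day difference (0.14) and its rhythm difference (0.70). The day difference of MpDET1 was also lost with no filter (0.13) or upper quartile scaling (0.13). Without the 3 libraries rich in MpVg01240 the losses were MpCOP1 at 36 h against 24 h (−0.29) and 42 h against 30 h (−0.33), and the day (0.11) and rhythm (0.80) differences of MpDET1. Fitting a pair of times alone lost MpCOP1 at 42 h against 30 h (−0.34), 48 h against 42 h (0.46), 60 h against 36 h (0.32) and 66 h against 54 h (−0.35), and gained MpDET1 at 54 h against 30 h (0.27); DESeq2 gained MpCOP1 at 36 h against 30 h (−0.29).

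Leaving out single libraries ended calls of MpDET1 for its day difference (0.11 to 0.16), rhythm difference (0.71 to 0.90) and 42 h against 30 h (−0.45 to −0.34). It ended calls of MpCOP1 at 36 h against 24 h (−0.39 to −0.29), 42 h against 30 h (−0.39 to −0.28), 66 h against 54 h (−0.39 to −0.32) and 60 h against 36 h (0.25 to 0.41), and made one at 66 h against 60 h (−0.37 to −0.20). Uncalled values of MpCOP1 changed sign at 42 h against 36 h (−0.11 to 0.0019), 54 h against 48 h (−0.062 to 0.050, with 0.012 between), 60 h against 48 h (−0.15 to 0.014) and 60 h against 54 h (−0.14 to 0.022). The causes of all these changes were not tested.

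Libraries with the same replicate number did not in general deviate together (median correlation 0.00188 over 84 pairs, 9 of 24 libraries closest to their own number). The single correlations ran from −0.501 to 0.448, and 30 of the 84 were over 0.1. With the replicate number as a block, 2649 genes were called rhythmic, against 2700, and the values were 1.44 for MpDET1 and 0.48 for MpCOP1, both called. For the ratio of MpDET1 to MpCOP1 counts the exact permutation test within blocks gave −1.04 (p = 0.03125, the smallest it can give, adjusted 0.0625) and −0.29 (p and adjusted p = 0.0938), neither called. The first contrast was −1.23 on day 1 alone and −0.85 on day 2 alone, the second −0.050 and −0.53; within a day no p under 0.1 can be had. Depth limits these values little, with at least 776 counts of MpDET1 and 847 of MpCOP1 in each library; among the listed genes MpBBX2 was the lowest, at a mean of 1.48 CPM.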
